A study of Mus musculus with 6 samples.

Results

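Prdm1 and 4 related genes of the Prdm family, Prdm6, Prdm8, Prdm16 and Mecom, were followed in maps of H3K4me1 from mouse whisker pads at embryonic day 12 (E12). The 5 genes were chosen by name out of 21755 protein-coding genes, and all 5 were found in the annotation. A peak was assigned to a gene when it overlapped the gene body or the 5 kb on either side of it. A peak further out, up to 100 kb from the body, was assigned when the nearest protein-coding start site belonged to that gene.

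The study mapped H3K4me1, histone H3 carrying a single methyl group on lysine 4, by CUT&Tag, in which antibody-guided transposase cuts the DNA around the mark and leaves sequencing adapters there. Of 6 samples, 3 were made with the antibody to H3K4me1 and 3 with control IgG, all from freshly isolated cells of wild-type pads (strain label B6/J2) at E12. The 3 H3K4me1 peak lists were used, numbered as replicates 1, 2 and 3 like the pads. IgG was not analysed here, and the values below have no matching background. Nothing states whether the pads came from separate embryos or litters, so the spread between replicates may be technical. The pad mixes epidermis, mesenchyme, nerve and vessel cells, and a mark on fewer cells cannot be told apart from a weaker mark in each cell.

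Prdm proteins join a PR domain, related to the catalytic domain of histone methyltransferases, to a row of zinc fingers that bind DNA, and most of them act on transcription by bringing in other chromatin proteins. Prdm1, also called Blimp1, is a repressor known for plasma cell differentiation and for the specification of germ cells. It marks clusters of mesenchymal cells that lie under the epidermis where whisker follicles will form. H3K4me1 is found at enhancers, both those in use and those held ready, and it often flanks an active start site without covering it.

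The lists held 16788, 12969 and 13998 peaks in replicates 1, 2 and 3. Total signal is the summed fragment pileup over a peak and was not scaled to depth. It was therefore expressed as a percentile within a replicate's own list or as a percent of the list's summed signal. No count of reads is given with a peak. Each list holds the top 1% of signal blocks, so a gene without a peak is a gene with no block above that list's limit. The weakest listed peak carried 0.00173, 0.00246 and 0.00260% of the list signal in replicates 1, 2 and 3. The source name of replicates 2 and 3 reads adult kidney, whereas their titles name the whisker pad. Of 12 facial mesenchyme markers, 12 had an assigned peak in each replicate. Of 12 adult kidney markers, 4, 4 and 1 did in replicates 1, 2 and 3, and a single one, Slc12a1, did in all 3. Over all protein-coding genes the share with an assigned peak was 29.3, 26.4 and 23.8%. The kidney counts of replicates 1 and 2 were not below it, so they do not settle the source of replicate 2. The values of each replicate are given throughout, so that replicate 1, whose labels do not conflict, can be read alone.

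Peaks in all 3 replicates were assigned to Prdm1, Prdm6, Prdm16 and Mecom, and Prdm8 had a peak in replicates 1 and 2. This is 4 of 5 members, against 19% of all protein-coding genes. The members were chosen with earlier results of these data known, so the count is a description and not a test. Among all protein-coding genes the share rose with gene length. It was 17.6% among genes of 20 to 50 kb, the class of Prdm8, and 33.3% among those of 50 to 200 kb, the class of Prdm1 and Prdm6. It reached 55.8% among those of 200 kb and over, the class of Prdm16 and Mecom. In total 106 peaks were assigned to the members. The position of highest pileup lay in an intron for 92 of them, upstream of the gene for 8, downstream for 4, in a coding exon for 1 and in a non-coding exon for 1. Merging overlapping peaks gave 39 regions. All replicates contributed to 23 of them, 2 replicates to 10 and a single one to 6. The 23 are 59.0% of the members' regions, beside 46.3% of 19246 regions genome-wide.

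The summed signal of the assigned peaks put the genes in the order Prdm16, Mecom, Prdm1, Prdm6 and Prdm8 in each of the 3 replicates. Prdm16 held 0.385, 0.417 and 0.232% of the list signal in replicates 1, 2 and 3, a mean of 0.345%. Mecom held 0.0488, 0.0462 and 0.0711%, a mean of 0.0554%. Prdm1 held 0.0169, 0.0129 and 0.0269%, a mean of 0.0189%. No value of Prdm16 overlapped one of Mecom, and none of Mecom overlapped one of Prdm1. Prdm6 held 0.00771, 0.0108 and 0.00902%, and Prdm8 0.00307 and 0.00535% with no peak in replicate 3. The ranges of these neighbours did not overlap either. These are totals, which grow with the length of a gene. Signal per length of gene was not computed. Another measure, the percent of the body with 5 kb flanks under peaks, gave a different order in replicates 1 and 2. There it was larger for the short Prdm8 than for Prdm6, Mecom or Prdm1. This percent leaves out peaks beyond the flanks, which are part of the signal of Prdm1.

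**Figure D1:**
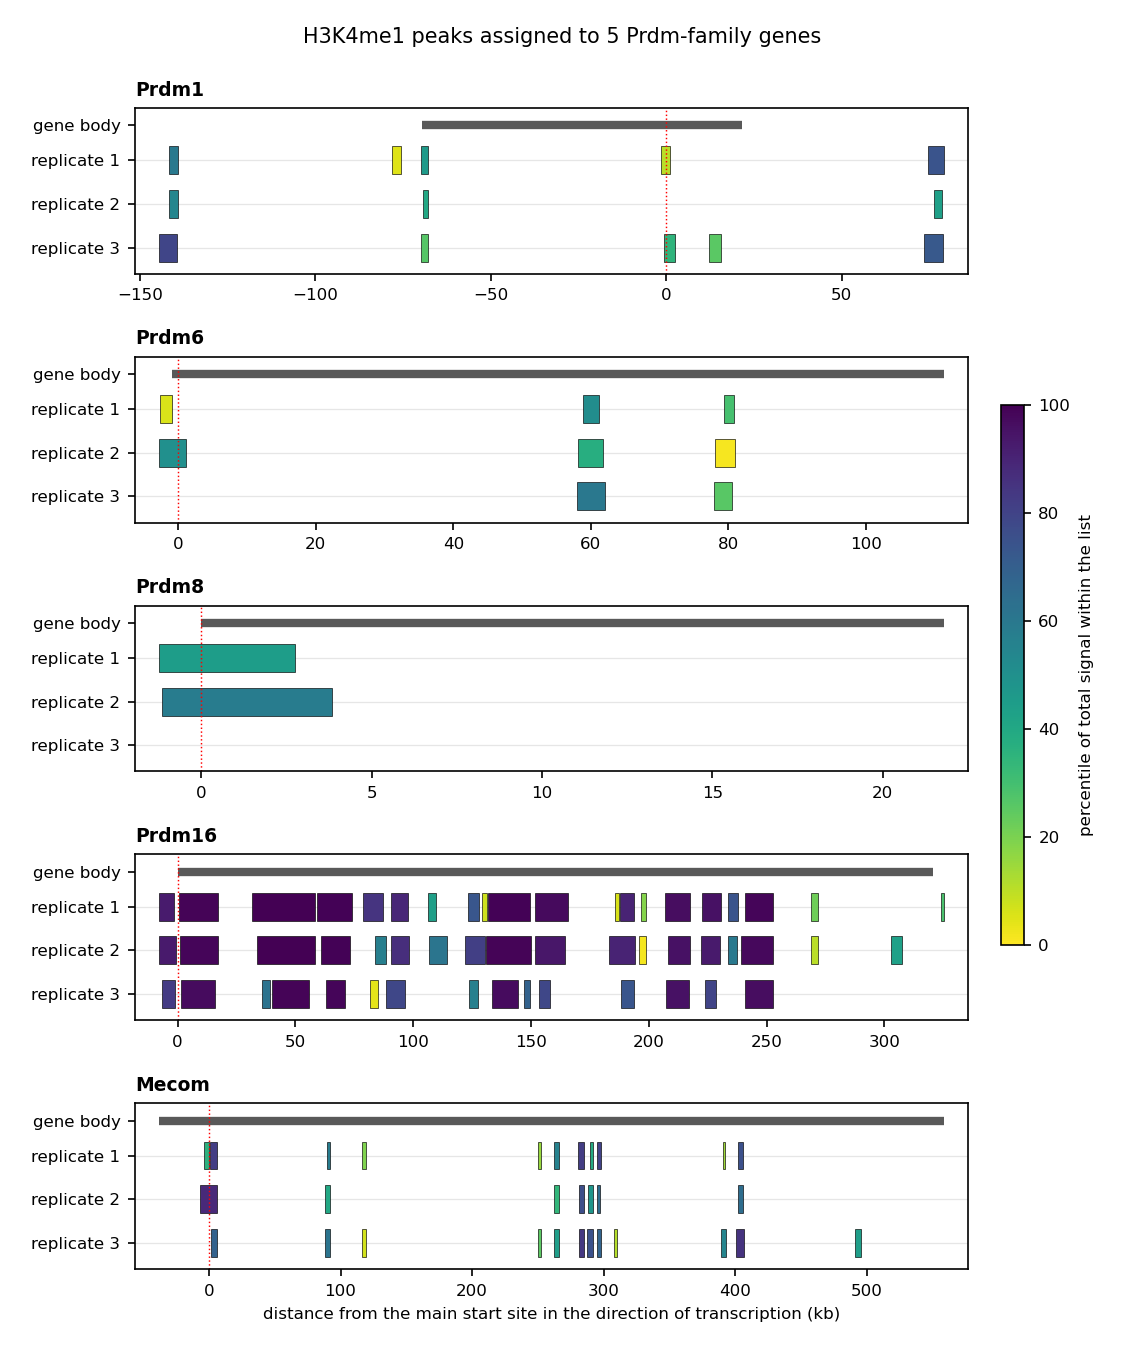
Position of every assigned peak, with distance from the main start site in the direction of transcription on the horizontal axis (kb) and the 3 replicates as rows. Each box is 1 peak, its colour is the percentile of its total signal within the list, the grey bar is the gene body and the dotted line the main start site. Prdm16 carries 20, 18 and 15 peaks, most of them over its long 5′ introns, whereas the peaks of Prdm1 lie mainly outside its coding part.

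Prdm1 lies at chr10:44437177-44528501 (mm10), on the minus strand. Its protein-coding start site is at 44458748, and the first 69.8 kb of the annotated body belong to a non-coding retained-intron transcript, which starts at 44528501. Prdm1 had 5, 3 and 5 assigned peaks in the 3 replicates, which is 4.33 ± 1.15 (SD, n = 3). Of these, 2, 1 and 3 lay in the body with its flanks and 3, 2 and 2 further out. The peaks fell into 6 regions, and 3 of the 6 recurred in all replicates. All 3 of those stood away from the protein-coding start, at 77.2 kb downstream, 68.5 kb upstream and 141 kb upstream of it.

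The sequences around the maxima of those 3 regions, and the bases just before the protein-coding start, are shown because they are the places where the mark was found, or was found in part, at Prdm1. The windows are 150 bases of GRCm38, plus strand, centred on the middle of the 3 positions of maximum pileup. The promoter is RefSeq's (GRCm38.p6), minus strand, cut to the 250 bases before the start. Capitals mark every CG pair.
Prdm1 promoter, chr10:44458749-44458998: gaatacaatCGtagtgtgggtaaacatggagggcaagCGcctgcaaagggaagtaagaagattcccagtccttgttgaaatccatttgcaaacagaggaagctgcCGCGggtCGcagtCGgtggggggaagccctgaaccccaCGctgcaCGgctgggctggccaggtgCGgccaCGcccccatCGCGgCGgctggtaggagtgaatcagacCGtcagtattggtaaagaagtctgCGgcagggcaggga
Downstream region, chr10:44381518-44381667: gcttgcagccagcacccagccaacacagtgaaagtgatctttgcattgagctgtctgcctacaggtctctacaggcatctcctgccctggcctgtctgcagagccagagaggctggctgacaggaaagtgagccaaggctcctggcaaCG
Region near the non-coding start, chr10:44527164-44527313: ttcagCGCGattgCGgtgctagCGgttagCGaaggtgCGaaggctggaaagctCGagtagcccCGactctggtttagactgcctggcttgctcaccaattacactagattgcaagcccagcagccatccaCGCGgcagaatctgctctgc
Far upstream region, chr10:44600010-44600159: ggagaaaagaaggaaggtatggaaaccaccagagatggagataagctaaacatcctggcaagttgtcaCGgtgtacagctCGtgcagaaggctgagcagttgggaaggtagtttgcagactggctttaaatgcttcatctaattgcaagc

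The promoter held 15 CG pairs in its 250 bases, against a median of 6 over 32851 RefSeq promoters cut in the same way. The window near the non-coding start held 10 in 150 bases, the downstream window 1 and the far upstream window 2.

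The downstream region, chr10:44379576-44385252, is intergenic between Prdm1 and Atg5, an autophagy gene. It lies nearer to the body of Atg5 than to that of Prdm1, and was assigned to Prdm1 by the nearest start site. Its peak stood at percentile 74.0, 43.5 and 72.4 of the list in replicates 1, 2 and 3, with a maximum pileup of 40, 45 and 50. The far upstream region, chr10:44597984-44603467, overlaps the long non-coding RNA genes Gm48065 and Gm35154 and stood at percentile 59.6, 54.1 and 79.6. It lies within 100 kb of the gene body only because the non-coding transcript is part of that body. The region near the non-coding start, chr10:44526532-44528709, stood lower, at percentile 46.0, 40.2 and 26.5. With a length of 2.18 kb it ranked 8847 by length among the 8916 regions found in all replicates genome-wide. None of the 3 recurring regions of Prdm1 passed percentile 80 in any replicate.

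The protein-coding start itself was covered by a peak in replicates 1 and 3, at percentile 10.5 and 35.0. In replicate 2 no peak lay within 67.8 kb of it. The peak of replicate 1 carried 0.00193% of the list signal, less than the weakest peak listed in replicate 2 or 3, so a peak of that relative size lies under the limit of those lists. The peak of replicate 3 carried 0.00377%, more than the weakest peak listed in replicate 2, at 0.00246%. The start was called in 2 of 3 replicates, and its absence from the list of replicate 2 does not show an unmarked promoter. Why it is absent there was not tested. Replicate 3 alone had a peak in intron 5 of the gene, at percentile 25.8, and replicate 1 alone a peak 77.7 kb upstream of the start, at percentile 5.02.

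The strongest peak of Prdm1 stood at percentile 74.0, 54.1 and 79.6, a mean of 69.2 ± 13.4 (SD, n = 3). That peak was the downstream one in replicate 1 and the far upstream one in replicates 2 and 3. When peaks beyond the 5 kb flanks were not counted, the mean fell to percentile 40.4 and the number of peaks to 2. The rank of Prdm1 among the members rests on these 2 outlying regions, whose target gene was assigned by distance alone. The 3 genes whose peaks were most like those of Prdm1 were Fzd4, a Wnt receptor, Tbl1xr1, a subunit of a corepressor complex, and Me3, a malic enzyme. Likeness was the root mean square difference over 9 values (number, summed length and top percentile in each replicate), each first ranked as a percentile over genes, and it came to 1.47, 1.5 and 1.56 percentile points.

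Lef1, a partner of beta-catenin whose loss the study examined for its effect on Prdm1, binds letters of the form CTTTGAA or CTTTGAT. Both were searched on both strands in the 300 bases around each maximum. None of the 5 windows of Prdm1 held either in replicate 1 and none of 3 in replicate 2, whereas 3 of 5 did in replicate 3. Over all peaks the share was 8.87, 8.64 and 11.8%. The maxima fell at different places inside the regions in the 3 replicates, and 1 of the 3 windows with a match belonged to a region called in replicate 3 alone. Counted over whole regions, independent of the maxima, Prdm1 held 14 matches in 23.1 kb, or 0.606 per kb, against 0.409 per kb over all 19246 regions. This was not particular to Prdm1, since Prdm6 held 0.633 and Prdm8 0.590 per kb. Mecom held 0.379 and Prdm16 0.277 per kb, and all members together 0.342. The Prdm1 matches were uneven, with 4 in the short region near the non-coding start, 5 in the downstream region and 0 in the 5.48 kb far upstream. The remaining matches lay in regions not called in all 3 replicates. GTGAAAG, letters of the Prdm1 site itself, were found once in the downstream window printed above, beginning at its base 28. They were present in 0 of 5, 1 of 3 and 1 of 5 windows of Prdm1, against 4.43, 4.16 and 4.65% of all peaks. A match of letters is a description of the sequence and not a bound site.

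Prdm6, a repressor expressed in vascular smooth muscle, lies at chr18:53463583-53575907 on the plus strand. It had 3, 3 and 2 peaks in the 3 replicates, or 2.67 ± 0.577 (SD, n = 3), all in the body with its flanks. In all replicates a peak lay in the second intron, 60.5 kb from the main start (percentile 51.5, 37.1 and 59.9), and another in the fourth, at 80.2 kb (percentile 29.5, 1.23 and 25.9). The main start, at 53464516, was covered in replicate 2, at percentile 50.2, by a peak that also covered the start of a short transcript at 53463583. The replicate 1 peak ended 64 bp short of it, and in replicate 3 the nearest peak was 45.8 kb away. The promoter-side region was the one that changed most between replicates, and its base composition stood apart, with 60.9% G and C, the highest of the 39 member regions. The strongest peak had a mean percentile of 53.9 ± 5.26 (SD, n = 3).

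**Figure D2:**
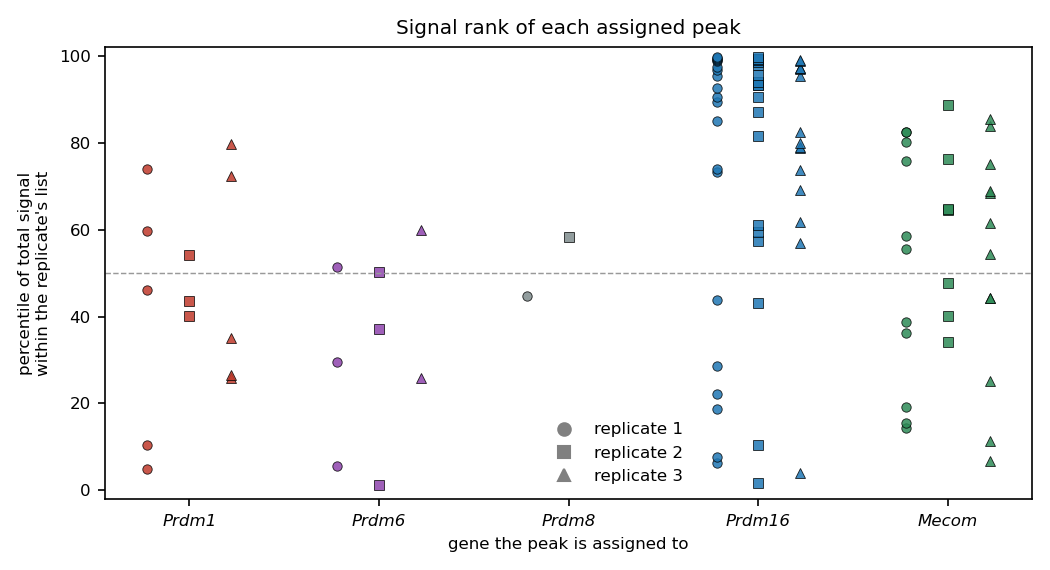
Percentile of total signal within the replicate's own list (vertical axis) for each of the 106 assigned peaks, by gene, with symbols for the 3 replicates and a dashed line at the median of the list. Above percentile 90 lie 10, 10 and 6 peaks of Prdm16 in replicates 1, 2 and 3, and no peak of Prdm1, Prdm6 or Prdm8 reaches percentile 80.

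Prdm8, which represses genes in neurons and retina together with Bhlhe22, lies at chr5:98167198-98188991 on the plus strand and carried 1 region. A single peak covered its upstream start site in replicates 1 and 2, with lengths of 4000 and 4974 bp and at percentile 44.7 and 58.3. The highest pileup fell at 98167730 in both, 0.532 kb inside the gene. In replicate 3 the nearest peak was 228 kb away. Prdm8 is therefore a member by 2 of 3 lists. The peak was broad and flat: by maximum pileup, at 20 and 34, it stood only at percentile 7.89 and 22.4. The downstream start at 98180978 had no peak in any replicate. The 150 bases around the shared maximum (GRCm38, plus strand), given because both replicates placed it at the same base, held 10 CG pairs, here in capitals.
Prdm8 maximum, chr5:98167656-98167805: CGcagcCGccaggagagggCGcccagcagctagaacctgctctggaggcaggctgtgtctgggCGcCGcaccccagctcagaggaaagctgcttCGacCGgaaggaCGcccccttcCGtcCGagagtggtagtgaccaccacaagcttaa

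Prdm16, a regulator of brown fat and of palate and jaw development, lies at chr4:154316125-154636873 on the minus strand and overlaps the gene B230104I21Rik. It had 20, 18 and 15 peaks in the 3 replicates, or 17.7 ± 2.52 (SD, n = 3). At least 15 peaks in every replicate were found for 34 protein-coding genes, or 0.156%, and at least 10 for 0.575%. By summed signal Prdm16 ranked 13, 4 and 14 among all protein-coding genes in replicates 1, 2 and 3. Peaks covered 50.9, 52.6 and 33.4% of its body with flanks, a mean of 45.6%. Among the 998 genes of 200 kb and over, whose median was 1.21%, it ranked 3, 2 and 5 by that percent. Prdm16 was thus near the top of its length class in each replicate, by number, signal and cover alike.

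The marked part of Prdm16 was its 5′ side. The first 3 introns, of 108, 51.9 and 109 kb, held 17 of 20 peaks in replicate 1, 15 of 18 in replicate 2 and 14 of 15 in replicate 3. These introns also make up most of the 321 kb gene body, so the counts alone do not set the 5′ side apart. Peaks covered 70.3, 62.1 and 49.1% of the first intron, 65.5, 80.1 and 43.0% of the second and 46.5, 49.2 and 28.9% of the third. From the fourth intron to the end of the gene, replicates 1 and 2 had 1 and 2 intronic peaks and replicate 3 had none. A single weak peak lay downstream of the gene, 324 kb from its start, in replicate 1 only.

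The 2 start sites of Prdm16, 7 bp apart, were not covered in any replicate. The nearest peak was 447, 638 and 1289 bp from the main start at 154636866. Peaks stood on either side of it in all 3 replicates. The inner one, chr4:154619819-154636419 as a merged region, was at percentile 99.0, 98.6 and 97.1, and the outer one, from 154637504, at percentile 92.6, 93.2 and 82.5. The bases before the start, which lie in this gap between 2 strong peaks, are shown for comparison with the covered promoter of Prdm1. They held 22 CG pairs in 250 bases (RefSeq, GRCm38.p6, minus strand, capitals mark CG).
Prdm16 promoter, chr4:154636874-154637123: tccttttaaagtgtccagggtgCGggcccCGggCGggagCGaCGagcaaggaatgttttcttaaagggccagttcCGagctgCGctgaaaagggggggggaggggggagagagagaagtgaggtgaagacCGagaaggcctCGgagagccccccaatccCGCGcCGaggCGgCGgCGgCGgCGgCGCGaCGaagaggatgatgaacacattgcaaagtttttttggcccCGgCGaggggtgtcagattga

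The strongest peak of Prdm16 stood at percentile 99.7, 99.8 and 99.0, a mean of 99.5 ± 0.438 (SD, n = 3). It belonged to a region of 27.0 kb in the first intron, chr4:154578399-154605437, that ranked 51 by mean percentile and 48 by length among the 8916 regions found in all replicates. A second region of that size, 27.7 kb in the second intron, ranked 164 by mean percentile. Between them, and nearer to the first, a region of 14.8 kb had the sharpest maximum of the gene, with a pileup of 272, 311 and 192 in replicates 1, 2 and 3. The 3 maxima of that region lay within 142 bp, 68.4 kb inside the gene, and the window around them (GRCm38, plus strand) is given as the highest point of the mark over any member. It held no CG pair and none of the letters searched.
Prdm16 first-intron maximum, chr4:154568435-154568584: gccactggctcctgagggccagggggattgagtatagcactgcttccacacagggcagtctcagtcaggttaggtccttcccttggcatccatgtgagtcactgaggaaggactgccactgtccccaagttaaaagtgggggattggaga

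**Figure D3:**
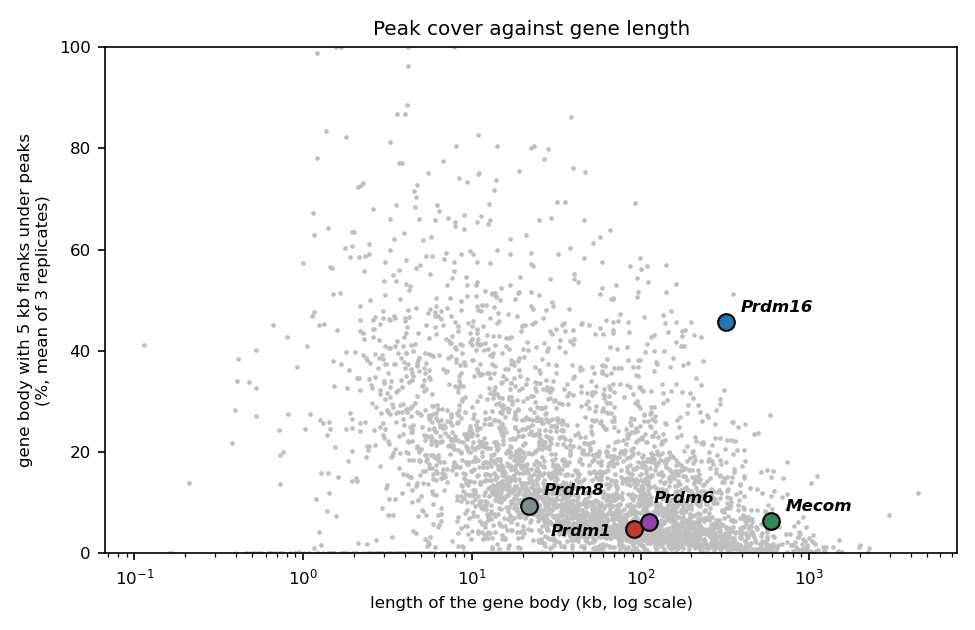
Percent of the gene body with 5 kb flanks that lies under peaks, as the mean of 3 replicates (vertical axis), against the length of the gene body in kb (horizontal axis, log scale), for the 4140 genes with an assigned peak in all 3 replicates as grey points and the 5 members as coloured points. Prdm16 stands at 45.6%, far above most genes of its length, and Mecom at 6.32%.

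Mecom encodes a paralogue of Prdm16 and lies at chr3:29951296-30548008 on the minus strand. Its long form, with the PR domain, starts at 30509733, and the short form known as Evi1, without it, starts at 30013156 or 30013505. Mecom had 11, 7 and 12 peaks in the 3 replicates, or 10 ± 2.65 (SD, n = 3). Peaks covered 6.0, 5.49 and 7.46% of the body with flanks. It ranked 223, 219 and 191 by that percent among the 998 genes of 200 kb and over. The mean over replicates was 6.32%, against the median of 1.21% in this class.

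The first intron of the long form, 499.5 kb in length, held 10 of 11, 6 of 7 and 12 of 12 peaks, and the remaining peak of replicates 1 and 2 lay around the long-form start. This intron makes up most of the 597 kb gene body, so the counts alone do not set it apart. Introns 2 to 15 held no peak in any replicate. The long-form start was covered in replicates 1 and 2, at percentile 36.2 and 88.6, and in replicate 3 the nearest peak was 1788 bp away, inside the gene. The short-form starts were uncovered in all replicates. Replicate 3 alone had a peak 520 bp from the nearer of them, at percentile 44.2, and in replicates 1 and 2 the nearest was 90.5 kb away. Peaks of replicate 3 thus differed from the other 2 at both ends of the intron.

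Between these ends the regions recurred. Each replicate had a peak in 7 of the 12 Mecom regions, and 4 of the 7 lay together between 265 and 296 kb from the long-form start. The strongest of these 4 by mean percentile, chr3:30224669-30229395, stood at percentile 82.4, 76.3 and 83.9, with its 3 maxima within 58 bp. The longest gap between neighbouring Mecom peaks lay between this group and the 5′ end, with 130, 171 and 130 kb. Stretches of the gene beyond its outermost peaks were not counted as gaps. The strongest Mecom peak stood at percentile 82.4, 88.6 and 85.5, a mean of 85.5 ± 3.14 (SD, n = 3).

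One Mecom region was narrow and steep. At chr3:30212083-30215129 the maximum pileup was 136, 133 and 70, at positions within 8 bp of one another in the 3 replicates. It is shown for that agreement, with 34% of the window masked as repeat and no CG pair. By maximum pileup the strongest Mecom peak rose to a mean percentile of 93.8, from 85.5 by total signal.
Mecom first-intron maximum, chr3:30213869-30214018 (GRCm38, plus strand): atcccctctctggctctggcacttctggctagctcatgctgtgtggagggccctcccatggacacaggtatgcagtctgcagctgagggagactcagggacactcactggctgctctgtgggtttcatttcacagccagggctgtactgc

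The RefSeq promoters of the Mecom long form and of Prdm16 were also compared letter by letter over 300 bases, from 250 before the start to 50 after it. They shared an unbroken run of 24 bases, which began shortly after the start of both transcripts, and it occurred in 2 of 32851 RefSeq promoters, these 2. Among the other pairs of different members the longest shared run was 9 bases. This likeness was not matched by the mark, since the long-form promoter of Mecom was covered over all 250 bases before the start in replicates 1 and 2 and that of Prdm16 over none in any replicate.

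To compare the members with Prdm1, the percentile of the strongest peak was subtracted within each replicate. Prdm16 exceeded Prdm1 by 30.3 ± 13.7 percentile points (SD, n = 3), being higher in 3 of 3 replicates (exact permutation test by sign flips, two-sided, p = 0.25, adjusted over the 4 pairs p = 0.333). Mecom exceeded it by 16.3 ± 15.9 points, in 3 of 3 replicates (exact permutation test, p = 0.25, adjusted p = 0.333). Without replicate 2 the difference of Mecom was 7.18 points. Prdm6 differed from Prdm1 by -15.3 ± 10.05 points, being higher in 0 of 3 (exact permutation test, p = 0.25, adjusted p = 0.333). With 3 replicates this test cannot go below 0.25, so none of the differences could pass 0.05. Prdm8 differed from Prdm1 by -12.5 ± 23.6 points in the 2 replicates where it had a peak, higher in 1 of 2, which is within the spread (exact permutation test, p = 1, smallest possible 0.5). The differences of Prdm6 and Prdm8 from Prdm1 changed sign, to 13.4 and 8.38 points, when peaks beyond the 5 kb flanks were left out. The strongest of more peaks tends to rank higher, and Prdm16 and Mecom had more peaks than Prdm1 in every replicate. The part of peak number in these differences was not tested. The median percentile of a gene's peaks, as a mean over replicates, was 87.3 for Prdm16, 59.4 for Mecom, 41.5 for Prdm1 and 36.5 for Prdm6. For Prdm8 it was 51.5, over the 2 replicates with a peak.

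The share of signal in replicate 3 relative to replicate 2 differed between the members. Over the 8916 regions found in all replicates, this share was lower where G and C were more frequent. The 11 Prdm16 regions found in all replicates had 50.6 to 54.1% G and C. All 11 had a lower share in replicate 3 than in replicate 2, with a median log2 ratio of -0.76. Regions within 1 point of their median composition had a median of -0.61, with quartiles of -0.83 and -0.39. The Prdm16 median lay between these quartiles, but single regions did not all do so beside regions of their own composition. The 27.0 kb first-intron region had -1.01 against a lower quartile of -0.87. Regions in the second intron had -1.24 against -0.79 and -0.68 against -0.63. A region in the third intron had -1.03 against -0.73. Another in the third intron was just above its upper quartile, and the rest lay between. The 7 Mecom regions had a median log2 ratio of 0.31, against 0.51 for regions of like composition, and a single one, at the G and C richer 5′ end, was lower in replicate 3. That region had -1.04 against a lower quartile of -0.67 for its own composition, and the narrow, steep region had 0.11 against 0.25. The other Mecom regions lay between their quartiles. The fourth-intron region of Prdm6 had 0.44 against an upper quartile of 0.17, and its second-intron region, at 0.60, lay between its quartiles. The 3 Prdm1 regions were each set beside regions within 1 point of their own composition. The downstream region had a log2 ratio of 0.84, against a median of 0.02 with quartiles of -0.18 and 0.24. The far upstream region had 0.88, against 0.49 with quartiles of 0.27 and 0.73. The region near the non-coding start had -0.19, against -0.16 with quartiles of -0.41 and 0.06. The first 2 were thus above the upper quartile, and the last lay between the quartiles. The part of base composition in these differences was not tested.

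**Figure D4:**
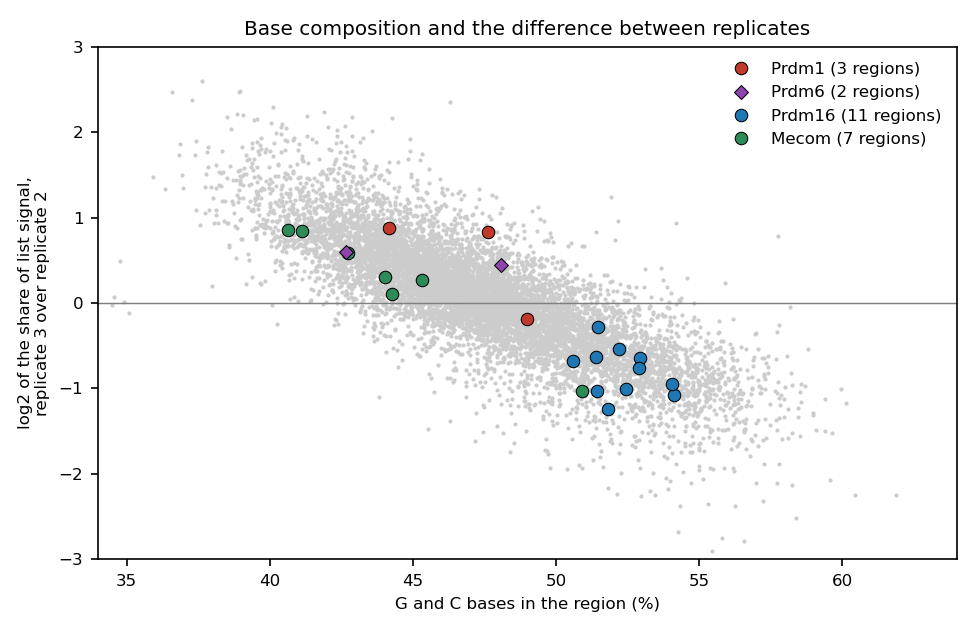
Log2 of the share of list signal in replicate 3 over that in replicate 2 (vertical axis) against the percent of G and C bases (horizontal axis) for the regions found in all 3 replicates, with 3 of 8916 outside the axes. Grey points are all regions and coloured points the 23 member regions: the 11 Prdm16 regions lie below 0 at high G and C, and 2 of the 3 Prdm1 regions lie above 0.

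A further 9 genes of the family are set beside the 5 members, which were chosen with earlier results of these data known. Of them, 2 had a peak in all 3 replicates (22.2%), close to the 19% of all protein-coding genes. Prdm11 had 7, 5 and 1 peaks, the strongest at percentile 96.9, 96.4 and 94.7, above any peak of Prdm1 or Mecom in the same replicate. Prdm14, a germ cell factor that acts with Prdm1 in the embryo, had 1, 1 and 1, at percentile 35.2, 41.2 and 29.5. Prdm2, Prdm10 and Prdm12 had peaks in some replicates, and Prdm4, Prdm9, Prdm13 and Prdm15 had none. High signal was therefore not shared across these 14 genes, and Prdm16 and Prdm11 were the 2 with a peak above percentile 90.

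**Figure D5:**
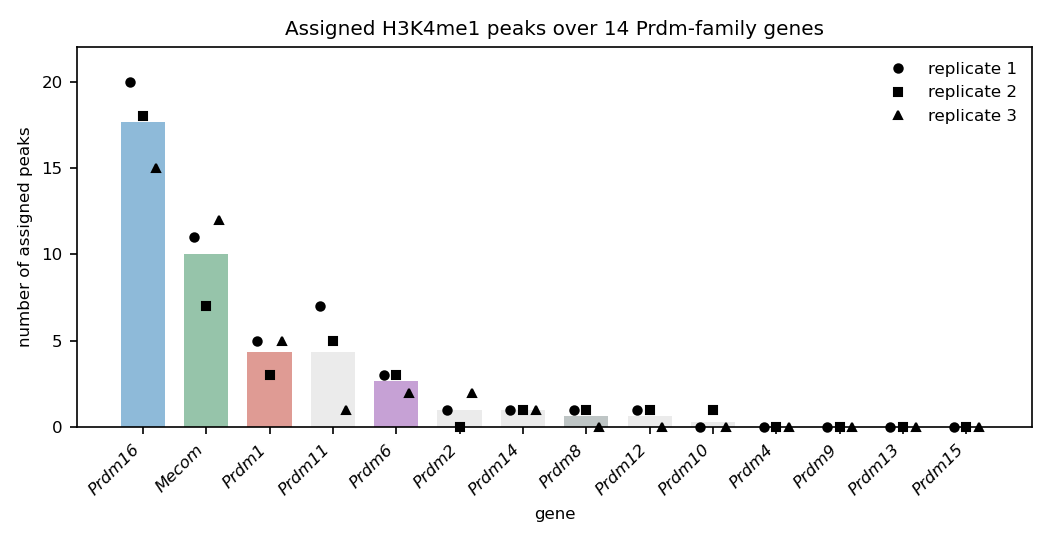
Number of assigned peaks (vertical axis) for 14 genes of the Prdm family, with the mean of 3 replicates as a bar and each replicate as a symbol, members in colour and the other 9 genes in grey. Prdm16 and Mecom have the most peaks in every replicate, and 4 genes have none.

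Partner proteins and targets of the family were looked at in the same way. Of 14 genes for cofactors, 3 had a peak in all replicates. Tle3, a Groucho-type corepressor, had 11, 14 and 11 peaks, Smad3, a mediator of TGF-beta signals that Mecom binds, had 10, 10 and 10, and Ctbp2, a corepressor that Mecom and Prdm16 recruit, had 7, 6 and 6. The strongest peaks of these 3 were between percentile 94.4 and 99.7. The genes for the histone enzymes Hdac2, Kdm1a, Ehmt1, Ehmt2 and Prmt5 had no peak in any replicate, and Hdac1 had one in replicate 2 alone, at percentile 33.8. Of 6 genes that Prdm1 represses in lymphocytes, Myc, Bcl6 and Id3 had a peak in all replicates. Id3, an inhibitor of basic helix-loop-helix factors, stood highest, with its strongest peak at percentile 96.8, 94.2 and 92.7. Pax5, a B-cell factor, had a peak in replicate 1 alone, and Ciita and Spib had none. The 3 of 14 cofactors (21.4%) were close to the 19% of all genes, and the 3 of 6 targets are too few to set against it.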

How the data were processed

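CUT&Tag for H3K4me1 was read from the deposited peak lists of 3 E12 whisker pads. The authors called peaks per replicate with SEACR 1.3 (stringent), without IgG, keeping the top 1% of blocks by total signal. The deposited values are total and maximum signal, the summed and highest fragment pileup, not scaled to depth. The submitters' processing notes also name Bowtie2 2.3, SAMtools 0.1.19, bedtools and mm10. Treatment of duplicate reads is not given in the sources used here. All peaks ended within the GRCm38 chromosome lengths. Peaks were assigned to GENCODE vM21 genes (54050 protein-coding start sites) on chromosomes 1 to 19 and X, coordinates 1-based, with Python 3.11.15, pandas 2.3.3, numpy 2.4.6 and pysam 0.24.0. Regions were merged by overlap of at least 1 bp. Assignment was tested on simulated peaks. Samples were grouped by their titles. RefSeq promoters matched 4 of 5 members, and no sequence of Prdm6 is printed.

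The members, gene lists and tests were chosen with earlier results of these data known. Named genes were the members, the other family genes, cofactors and targets with peaks in all replicates, Lef1, neighbours and the 3 genes most like Prdm1. The value of 1 family gene is not reported here. Cofactors and targets without such a peak that are named were chosen after their values were seen. The difference between members was tested with an exact permutation test on 3 replicates, adjusted by Benjamini-Hochberg with statsmodels 0.14.6. Alternatives were a stricter list (stronger 50%, strongest 10000), joining of peaks under 1 kb apart, a reach of 50 kb or none, assignment by the maximum, other signal ranks, 50% overlap and leaving out each replicate. Start sites of basic transcripts only were added after seeing the data. Figures were drawn with matplotlib 3.10.9.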

Additional observations from a re-analysis of the deposited data

How the results depend on the processing

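Of 264 alternative values for 26 results, 227 kept their direction and stayed within the spread between replicates (for counts, within 1.5 times), 31 moved further and 6 changed sign. The cause was not tested. With peaks beyond the 5 kb flanks left out, Prdm1 had a mean of 2 peaks, a strongest peak at percentile 40.4 and 0.00650% of the signal. With a reach of 50 kb these were 2.33 peaks, percentile 40.4 and 0.00711%. Prdm6 minus Prdm1 became 13.4 percentile points under both settings and Prdm8 minus Prdm1 became 8.38. Leaving out each replicate gave -29.2 to 4.18 for Prdm8 minus Prdm1, with the change of sign when replicate 1 was left out.

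With the stronger 50% of each list, which by construction holds fewer peaks, the mean number of peaks was 1.67 for Prdm1, 1 for Prdm6, 0.333 for Prdm8 and 5.67 for Mecom. The strongest peak then stood at percentile 38.4 for Prdm1, 7.71 for Prdm6, 16.5 for Prdm8, 99.0 for Prdm16 and 71.0 for Mecom. The covered percent was 0 for Prdm1, 2.77 for Prdm6 and 4.05 for Mecom, the signal of Prdm6 was 0.00585%, Prdm8 minus Prdm1 was 8.36 points, and 11.2% of genes had a peak in all replicates. With the strongest 10000 peaks, Prdm6 had 1.33 peaks, a strongest peak at percentile 32.6, 3.78% covered and 0.00649% of the signal, the strongest peak of Prdm8 stood at percentile 26.5 and that of Mecom at 78.5, and 5.10% of Mecom was covered. Ranked by maximum signal, the strongest peak stood at percentile 15.1 for Prdm8 and 93.8 for Mecom, and by signal per length at 17.97 and 91.96.

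The number of member regions with a peak in all 3 replicates ranged from 17 to 23 over the alternatives that kept every list. With replicate 1, 2 or 3 left out it was 24, 29 and 30, where a peak in the remaining lists was enough. The differences of Prdm16 and of Mecom from Prdm1 in the percentile of the strongest peak stayed above 0 in each alternative. Start sites of basic transcripts only, an alternative chosen after seeing the data, moved none of these results. No paired analysis was possible because a single group of samples was compared here, and the replicate number was used only to take differences between members within each list. The lists hold no read numbers, so depth limits what an absent peak can show, and 3 replicates cannot give a p below 0.25.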
